A study of Mus musculus with 8 samples.

Results

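The genes that encode the proteasome were compared between the ribosome-bound RNA of glutamatergic neurons of the mouse ventral pallidum and the RNA of the whole tissue. Members were all protein-coding genes whose symbol began with Psm, a letter from a to g and a digit, and 47 of the 14353 genes with values met this rule. Of these 47, 46 encode proteasome subunits, activators, an inhibitor or assembly chaperones. Psmc3ip, a partner of the recombination machinery of meiosis, was taken in by its name alone. Psma8, Psmb8, Psmb11 and Psme3ip1 were not analysed here.

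The mice carried VGluT2-Cre in the homozygous state and the tagged ribosomal protein allele Rpl22 in the heterozygous state, so that Cre in VGluT2 cells put an HA tag on their ribosomes. Tissue of 38 untreated mice (15 males and 23 females) was pooled into 4 samples of 7 to 11 mice, called VP1.6 (9 to 12 weeks of age), VP2.2, VP2.6 and VP2.11 (10 to 16 weeks in each of these 3). These counts and ages are those of the sample labels. The study's methods describe more samples, more mice and a lower upper age. From each pool's homogenate an INPUT fraction (all neurons and glia) was set aside, and the tagged ribosomes were pulled down from the rest as the TRAP fraction, which gave 4 libraries per fraction. The labels name the other fraction INPUT, and the methods describe it as taken before the pulldown, but elsewhere they speak of the unbound fraction as the RNA that was sequenced beside TRAP; the labels were followed here. If the libraries held unbound RNA, every difference would be TRAP minus what the pulldown left behind. Both fractions share genotype and animals, every pool mixed both sexes, and the dissection could include neighbouring striatum.

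The proteasome is the barrel-shaped protease that degrades proteins marked with ubiquitin. Its 20S core stacks rings of alpha subunits, which gate the entrance, on rings of beta subunits, some of which carry the cutting sites. The 19S regulatory particle caps the core, where its ATPase subunits unfold the substrate and its non-ATPase subunits bind and remove the ubiquitin chain. Interferon brings in other catalytic subunits (the immunoproteasome) and the PA28 activator, and in the brain these are known mainly from glia. Neurons depend on the proteasome for turnover of synaptic proteins.

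Values were log2 CPM, the logarithm to base 2 of a gene's counts scaled to library size, so that a difference of 1 is a 2-fold change. Values of 4 libraries or pools that follow each other are in the order VP1.6, then VP2.2, then VP2.6, then VP2.11. A difference is TRAP minus INPUT within a pool unless stated otherwise. The fractions were first checked against marker genes. Slc17a6, which encodes VGluT2, was between 7.02 and 7.34 log2 CPM in the TRAP libraries and between 3.85 and 5.30 in INPUT, a difference of 2.55 ± 0.24 (SE, n = 4 pools, adjusted p = 7.3e-06 with the pool as block in limma). Of the markers of other cells, 4 of 5 astrocyte genes, 4 of 5 oligodendrocyte genes and 3 of 5 microglia genes were called lower in TRAP in that fit. The microglia gene Tmem119 was below 1 CPM in every TRAP library and passed the filter on low values through INPUT alone. Its call is not taken as a difference, which leaves C1qb and Cx3cr1. In the same fit, 4 of 5 pan-neuronal and 3 of 4 glutamatergic genes were higher. Of 3 GABAergic genes, Slc32a1 was lower, and of 4 endothelial genes, Flt1 was higher. In these bulk samples, fewer cells of a type and less RNA per cell cannot be told apart. In all 47 members, and in 14351 of the 14353 genes, 1 value lay between TRAP and INPUT in every pool, so a library high in TRAP had a low INPUT partner. When TRAP libraries were set against INPUT libraries of other pools, this held for 47.8% to 55.7% of genes. The fractions of a gene with 1 such value do not overlap once its 4 pools share a direction. A lack of overlap, as given below, thus restates that agreement of the pools. The 4 libraries of a fraction are therefore not free of each other's pairing, and both the fit with fraction alone and the fit with the pool as block are given below. With pairs of opposite sign, a fit without the pool tends to understate the error of a difference. For Psma1 the SE was 0.12 with fraction alone and 0.22 with the pool as block. Calls and p-values from fraction alone are thus the less cautious ones.

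A known route by which proteasome genes are raised together is the transcription factor Nfe2l1, which binds antioxidant response elements. The RefSeq promoter windows (build GRCm38.p6, from 250 bases before to 50 bases after the start of the gene) were searched for TGACNNNGC on both strands, and 40 of the 47 members had such windows, 43 in all. The letters stood in 6 of these 43 windows (14.0%) and in 12.4% of all 32851 windows. The 6 are shown, with the motif in capitals and 5′ to 3′ on the strand of the gene, because they include catalytic and regulatory subunits whose values follow.
Psmb5 (chr14:54618024-54618052, minus strand): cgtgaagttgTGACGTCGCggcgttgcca
Psmb6 (chr11:70525338-70525366, plus strand): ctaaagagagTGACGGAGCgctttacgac
Psmc6 (chr14:45329587-45329615, plus strand): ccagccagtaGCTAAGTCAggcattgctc
Psmd12 (chr11:107479278-107479299, plus strand): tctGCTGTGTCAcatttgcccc
Psmd9 (chr5:123228149-123228177, plus strand): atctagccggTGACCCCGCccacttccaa
Psme4 (chr11:30771758-30771786, plus strand): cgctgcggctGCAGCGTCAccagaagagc
The motif lay close to the start of the gene in Psmb5, Psmb6, Psmd9 and Psme4 and near the far end of the window in Psmc6 and Psmd12. The log2 fold changes of these 6 genes ran from -0.24 (Psmb6) to 0.53 (Psmd12) with a median of 0.19, beside a median of 0.06 over the 34 other members with a window. Nfe2l1 itself did not differ between fractions by more than its error (-0.0041 ± 0.22, SE, adjusted p = 0.991 with the pool as block). CCAAT, searched the same way, stood in 32.6% of the members' windows and in 37.4% of all windows.

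As a whole, the proteasome genes were close to level between the fractions. Their median log2 fold change was 0.09, and 28 of 47 were higher in TRAP on average, beside a median of -0.05 over the 14249 genes tested. With fraction alone, 11 of the 47 members (23.4%) passed an adjusted p of 0.05 in limma, 6 higher and 5 lower in TRAP, where 47.9% of all genes tested did so (23.2% higher and 24.8% lower). With the pool as block, 6 members passed (12.8%, 2 higher and 4 lower), where 32.2% of all genes did so (15.4% higher and 16.8% lower). With array weights and fraction alone, the setting nearest to the sample quality weights of the study's methods, 26 members passed (20 higher and 6 lower), where 60.7% of all genes did so (28.5% higher and 32.1% lower). The weights there ran from 0.23 (TRAP VP2.11) to 5.66 (INPUT VP2.6), and those of VP2.2 were 0.52 in TRAP and 0.34 in INPUT. In pool VP2.6, 32 members had their highest difference, and in VP2.2 34 had their lowest. The part of single libraries in the count with weights was not tested. All 47 members passed the filter on low values, and Psmb9 did so through its INPUT libraries alone, since each of its TRAP libraries was below 1 CPM. Its call, 1 of the 5 lower ones with fraction alone, is therefore not taken as a difference. In all 4 pools 6 members were higher in TRAP and 3 were lower, beside 23.3% and 24.4% of all genes.

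**Figure D1:**
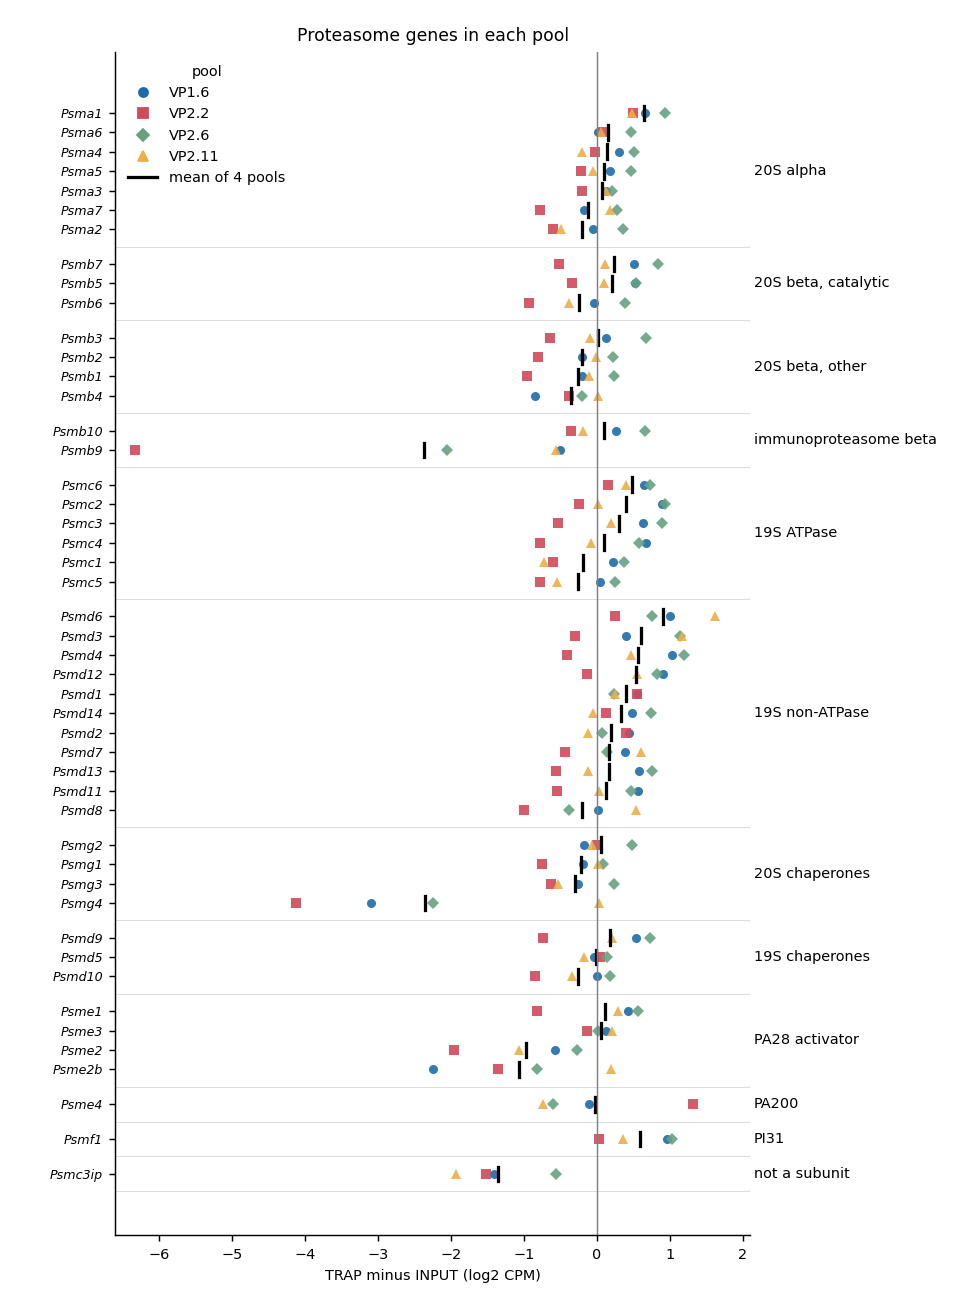
TRAP minus INPUT in log2 CPM (horizontal axis) for each of the 47 members (rows, grouped by role), with 1 coloured point for each of the 4 pools and a black bar at their mean. Most members scatter around 0, pool VP2.2 is the lowest of the 4 pools in 34 rows, and Psmb9 and Psmg4 reach furthest below 0 with the widest spread.

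The pools did not agree on the direction of the set. In VP1.6, 30 of the 47 members were higher in TRAP, in VP2.6 39 and in VP2.11 25, while in VP2.2 10 were. The median difference over the members was 0.18 in VP1.6, -0.53 in VP2.2, 0.39 in VP2.6 and 0.01 in VP2.11, whereas the median over all genes stayed between -0.04 and -0.01 in the 4 pools. Pool VP2.2 stood apart, and without it the members' median was 0.18 and 11 members passed with the pool as block (8 higher and 3 lower, where 14.9% and 14.3% of all genes did so). Without VP2.6 the median was -0.04 and 4 passed (1 higher and 3 lower, where 10.7% and 12.1% did so). Marker genes also stood apart in VP2.2, both those of other cells and those of glutamatergic neurons. Slc17a6 had its highest difference there (3.17, against 1.84 to 2.78 in the other pools), and Neurod1 its lowest (2.22, against 2.79 to 3.18). The GABAergic genes Gad1 and Gad2 had differences of 1.66 and 1.29 there, against -0.88 to -0.03 in the other pools, and all 3 GABAergic and 4 of 5 astrocyte genes had their highest difference in this pool. The astrocyte gene Aqp4 was at -0.0017 in VP2.2, against -1.66 to -1.26 in the others. With a trend with exon length taken out, as described further on, the astrocyte genes Gfap and Gja1 were no longer highest in VP2.2. The part of the cells that these genes mark in the members' shift was not tested.

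In the 20S core, the 14 constitutive subunits had a median log2 fold change of 0.04, and 1 of the 14 passed in either fit, where 47.9% of all genes did so with fraction alone and 32.2% with the pool as block. Among the alpha subunits the fold changes ran from -0.20 (Psma2) to 0.64 (Psma1), with a median of 0.10 over 7 genes. Psma1 (chr7:114264606-114276118, GRCm38, minus strand) was at 8.83, 8.64, 8.95 and 8.75 log2 CPM in the TRAP libraries and at 8.17, 8.15, 8.01 and 8.27 in the INPUT libraries of the same pools. The fractions did not overlap, and Psma1 was higher in TRAP by 0.64 ± 0.22 (SE, adjusted p = 0.0343 with the pool as block and 0.0021 with fraction alone). This call was lost in the blocked fit when VP1.6, VP2.6 or VP2.11 was left out (adjusted p = 0.137, 0.211 and 0.0714). Psma2, at the other end of the ring's genes, was at 8.30, 8.13, 8.51 and 8.04 log2 CPM in TRAP and at 8.36, 8.74, 8.15 and 8.54 in INPUT, which overlapped.

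The catalytic beta subunits did not differ between fractions in either fit. Psmb5, with the chymotrypsin-like site, was at 7.23, 6.83, 7.23 and 7.01 log2 CPM in TRAP and at 6.71, 7.18, 6.69 and 6.92 in INPUT, a difference of 0.20 ± 0.22 (SE, adjusted p = 0.52 with the pool as block). Psmb6, with the caspase-like site, was at 9.07, 8.79, 9.29 and 8.88 in TRAP and at 9.12, 9.72, 8.90 and 9.26 in INPUT, a difference of -0.24 ± 0.25 (adjusted p = 0.489). Psmb7, with the trypsin-like site, was at 8.89, 8.44, 9.04 and 8.68 in TRAP and at 8.39, 8.97, 8.20 and 8.57 in INPUT, a difference of 0.23 ± 0.25 (adjusted p = 0.509). In all 3 genes TRAP was below INPUT in VP2.2 and above it in VP2.6, so the libraries of the fractions overlapped. The other beta subunits ran from -0.36 (Psmb4) to 0.01 (Psmb3). Psmb4 was at 5.88, 6.19, 6.22 and 6.34 log2 CPM in TRAP and at 6.73, 6.58, 6.43 and 6.33 in INPUT, and its difference of -0.36 ± 0.22 did not pass (adjusted p = 0.232). Psmb3 was at 8.52, 8.24, 8.79 and 8.40 in TRAP and at 8.40, 8.89, 8.12 and 8.50 in INPUT.

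Of the immunoproteasome subunits, Psmb10 did not pass in either fit and Psmb9 was close to or below 1 CPM in 7 of 8 libraries. With array weights Psmb10 was called higher with fraction alone (0.37, adjusted p = 0.037) and not with the pool as block (0.31, adjusted p = 0.214). Psmb10, which takes the place of Psmb7, was at 6.99, 6.73, 7.20 and 6.73 log2 CPM in TRAP and at 6.74, 7.10, 6.53 and 6.93 in INPUT, a difference of 0.09 ± 0.23 (SE, adjusted p = 0.799 with the pool as block). Psmb9 (chr17:34181987-34187764, minus strand), which takes the place of Psmb6, was at -0.31, -3.32, -1.63 and -0.45 log2 CPM in TRAP and at 0.20, 3.01, 0.43 and 0.11 in INPUT. It was lower in TRAP in each pool, with differences from -0.51 in VP1.6 to -6.33 in VP2.2. The mean of -2.37 rested on VP2.2 and was -1.05 without that pool. No test is given for Psmb9, since its INPUT libraries alone carried it past the filter.
The INPUT library of VP2.2 was the only Psmb9 value above 1 log2 CPM. Of its exon bases 5.79% overlap exons of Tap1 on the opposite strand. Set per kilobase of transcript, Psmb10 made up 18.6% to 21.3% of the summed level of Psmb10 and Psmb7 in the TRAP libraries and 19.5% to 22.1% in INPUT. Psmb9 made up 0.0134% to 0.0914% of the summed level of Psmb9 and Psmb6 in TRAP and 0.104% to 0.560% in INPUT. The 5 microglia markers summed to between 16.6 and 25.5 CPM in the TRAP libraries and to between 57.5 and 92.3 CPM in INPUT. Tmem119, which is in this sum, was below 1 CPM in every TRAP library and is not taken as a difference. Among the INPUT libraries, VP2.2 was highest for C1qa (1.93 log2 CPM, against 1.27 to 1.89). It was not highest for Cx3cr1 (4.60, against 4.16 to 4.84), C1qb (5.26, against 4.46 to 5.40), Csf1r or Tmem119. The part of microglia in the Psmb9 values was not tested.

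**Figure D2:**
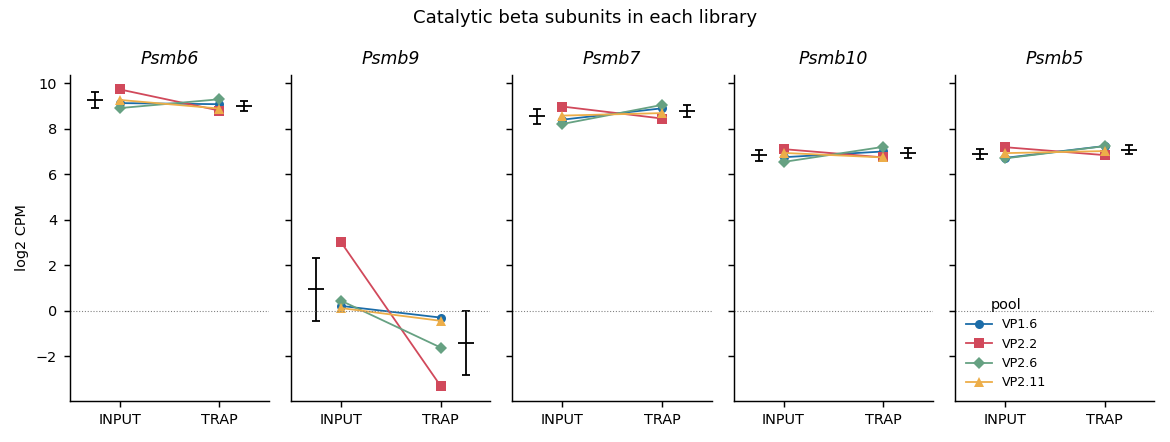
log2 CPM (vertical axis) of the catalytic beta subunits in the INPUT and TRAP libraries, with lines joining the libraries of 1 pool and black bars for the mean ± SD of the 4 libraries of a fraction; the dotted line is 0 (1 CPM). Psmb5, Psmb6, Psmb7 and Psmb10 cross between pools, while Psmb9 lies below 1 CPM in every TRAP library and in INPUT is high in VP2.2 (3.01).

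In the values as deposited, the genes of the 19S regulatory particle had a higher median difference than those of the core. Its 17 subunits with a Psm name had a median log2 fold change of 0.30, with 14 of 17 higher in TRAP on average, and none of them was called lower in either fit. Sem1, a subunit of the lid without that name, is not among the 17 and was called lower, as given further on. With fraction alone 4 of the 17 passed (Psmd6, Psmd12, Psmc6 and Psmd1), where 23.2% of all genes were called higher, and with the pool as block Psmd6 was the 1 that passed, where 15.4% were. By pool, 17 of the 17 were higher in TRAP in VP1.6, 5 in VP2.2, 16 in VP2.6 and 11 in VP2.11. The median difference of the 19S genes exceeded that of the 20S genes in each of the 4 pools, by 0.49 in VP1.6, 0.04 in VP2.2, 0.29 in VP2.6 and 0.19 in VP2.11 (mean 0.25 ± 0.19, SD, n = 4 pools). With a trend with exon length taken out, as described further on, this held in 2 of the 4 pools (mean 0.06 ± 0.16, SD). With the pool as block, 6 of the 17 passed without VP2.2, all higher in TRAP, where 14.9% of all genes were called higher. In the same fit 1 passed without VP1.6 (10.9% of all genes higher), 1 without VP2.6 (10.7%) and 0 without VP2.11 (13.1%).

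Among the ATPases, fold changes ran from -0.26 (Psmc5) to 0.47 (Psmc6), with a median of 0.20 over 6 genes. Psmc6 was at 8.40, 8.11, 8.42 and 8.28 log2 CPM in TRAP and at 7.76, 7.96, 7.70 and 7.89 in INPUT. The fractions of Psmc6 did not overlap, and its difference of 0.47 passed with fraction alone (SE 0.13, adjusted p = 0.0109) and not with the pool as block (SE 0.22, adjusted p = 0.105). Psmc5 was at 9.49, 9.21, 9.59 and 9.16 in TRAP and at 9.45, 10.00, 9.35 and 9.71 in INPUT, and did not pass (adjusted p = 0.444 with the pool as block). The promoter windows of Psmc6 and Psmd12 hold the motif shown above near their far end.

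Among the 11 non-ATPase subunits the median was 0.32 and Psmd6 was highest. Psmd6 (chr14:14112174-14120984, minus strand), a scaffold subunit of the lid, was at 7.67, 7.21, 7.51 and 8.16 log2 CPM in TRAP and at 6.67, 6.97, 6.76 and 6.54 in INPUT. Every TRAP library was above every INPUT library, the pools differed from 0.24 (VP2.2) to 1.62 (VP2.11), and the difference of 0.90 ± 0.24 (SE) passed with the pool as block (adjusted p = 0.0109) and with fraction alone (adjusted p = 0.00362). Without VP2.11 it was 0.66 and no longer passed with the pool as block (adjusted p = 0.0796). An exact two-sided permutation of 4 against 4 libraries gave p = 0.0286 for Psmd6, the smallest it can give. The exact test over the signs of the 4 pool differences gave 0.125, also the smallest it can give. The permutation ignores the pairing, and any gene whose fractions do not overlap reaches 0.0286. Among all genes, 23.3% had every TRAP library above every INPUT library and 24.4% had every one below. These were also the shares with TRAP higher and lower in all 4 pools, so the 0.0286 adds nothing to the agreement of direction. For Psmg4 and Psme2b, whose fractions overlap, the permutation gave 0.0571.

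Psmd3, another lid subunit, was at 4.81, 4.50, 5.21 and 5.47 log2 CPM in TRAP and at 4.41, 4.80, 4.08 and 4.30 in INPUT, a difference of 0.60 ± 0.28 (SE) that did not pass (adjusted p = 0.112 with the pool as block). Psmd4, a receptor for ubiquitin chains, was at 8.52, 7.83, 8.57 and 8.25 in TRAP and at 7.50, 8.24, 7.38 and 7.78 in INPUT, a difference of 0.57 ± 0.26 that did not pass (adjusted p = 0.112). In both genes VP2.2 was the 1 pool with TRAP below INPUT. Psmd12, a lid subunit, and Psmd1, the largest scaffold of the base, passed with fraction alone (0.53 and 0.39, adjusted p = 0.0208 and 0.0186) and not with the pool as block (adjusted p = 0.0914 and 0.163). Psmd14, the deubiquitinase that frees the chain, was 0.32 higher and did not pass (adjusted p = 0.293 with the pool as block). Psmd8 was lowest of the group, at 6.50, 6.12, 6.30 and 6.87 log2 CPM in TRAP and at 6.49, 7.12, 6.68 and 6.34 in INPUT, a difference of -0.21 ± 0.25.

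**Figure D3:**
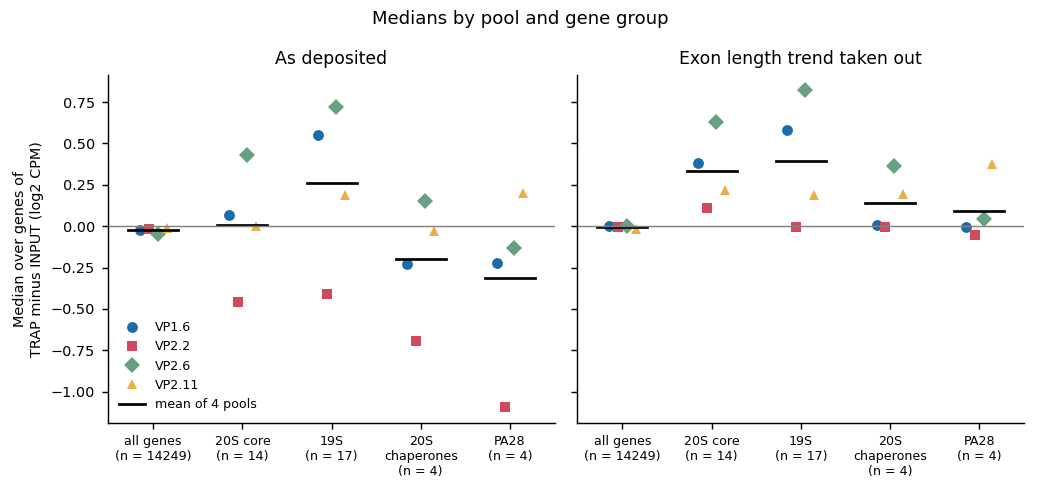
Median over the genes of a group of TRAP minus INPUT in log2 CPM (vertical axis), with 1 point for each pool and a black bar at the mean of the 4 pools, as deposited (left) and after the trend with exon length was taken out of each pool (right). Pool VP2.2 is lowest in each proteasome group on the left, the 19S points lie above the 20S points of the same pool on the left, and on the right this holds for 2 of the 4 pools.

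The assembly chaperones of the core held the lowest of the members that passed with the pool as block. Psmg4 (chr13:34162964-34178173, plus strand), which helps to build the alpha ring, was at 1.40, 0.35, 1.72 and 3.60 log2 CPM in TRAP and at 4.50, 4.47, 3.97 and 3.57 in INPUT. Its differences were -3.10, -4.13, -2.24 and 0.03, so 3 pools were far lower in TRAP and VP2.11 was level. It was lower in TRAP (log2 fold change -2.36 ± 0.50, SE, adjusted p = 0.00281 with the pool as block), and the call held with each pool left out in turn (adjusted p from 0.000199 to 0.0229). This SE is limma's, which draws on the spread of other genes, while the SD of the 4 pool differences of Psmg4 was 1.77. The exact test over the signs of these differences gave 0.25. Psmg4 had the shortest exon length of the members, 555 bases. Psmg1, Psmg2 and Psmg3 ran from -0.30 (Psmg3) to 0.06 (Psmg2) and did not pass. Psmg2 was at 5.63, 5.72, 5.98 and 5.67 log2 CPM in TRAP and at 5.81, 5.73, 5.50 and 5.74 in INPUT.

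The chaperones of the 19S base did not pass in either fit. Psmd9 was at 6.36, 5.80, 6.45 and 6.22 log2 CPM in TRAP and at 5.83, 6.54, 5.73 and 6.02 in INPUT, a difference of 0.18 ± 0.25 (SE). Psmd10 was at 6.36, 6.04, 6.46 and 6.14 in TRAP and at 6.37, 6.90, 6.28 and 6.49 in INPUT, a difference of -0.26 ± 0.23. Psmd5 lay between them at -0.01 ± 0.23. Exons of Psmd9 overlap those of an antisense gene over 25.5% of their bases, and whether the counting used strand is not given in the sources used here.

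Of the PA28 activator, Psme2 was lower in TRAP while its partner Psme1 did not pass in either fit. Psme2 was at 5.82, 5.28, 5.97 and 5.39 log2 CPM in TRAP and at 6.39, 7.23, 6.25 and 6.46 in INPUT, with no overlap and differences of -0.57, -1.96, -0.28 and -1.07. The mean of -0.97 ± 0.26 (SE) passed with the pool as block (adjusted p = 0.0123) and with each pool left out (adjusted p from 0.00723 to 0.0447). Psme1 was at 6.90, 6.37, 6.95 and 6.85 in TRAP and at 6.47, 7.19, 6.39 and 6.57 in INPUT, a difference of 0.11 ± 0.25 (adjusted p = 0.762). Whether Psme1 and Psme2 differ from each other in this was not tested. Psme3, which forms a nuclear activator of its own, had a difference of 0.05 ± 0.21.

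Psme2b, a copy of Psme2 with no intron, was at 1.90, 2.41, 2.64 and 3.42 log2 CPM in TRAP and at 4.15, 3.78, 3.47 and 3.23 in INPUT, with differences from -2.25 (VP1.6) to 0.19 (VP2.11). Its mean of -1.06 ± 0.37 (SE) passed with the pool as block (adjusted p = 0.0399), and lost the call when VP1.6, VP2.2 or VP2.6 was left out (adjusted p = 0.257, 0.118 and 0.0634). The coding sequences of Psme2 (chr14:55587441-55591113, minus strand) and Psme2b (chr11:48945354-48946190, minus strand) differ at 5 of 720 bases. The stretch from base 454 to base 543 of the coding sequence (GENCODE transcripts, GRCm38) holds 3 of the 5, in capitals, and is shown because most of the coding differences between the genes lie in it.
Psme2: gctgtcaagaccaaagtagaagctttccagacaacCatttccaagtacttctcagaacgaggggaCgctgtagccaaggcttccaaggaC
Psme2b: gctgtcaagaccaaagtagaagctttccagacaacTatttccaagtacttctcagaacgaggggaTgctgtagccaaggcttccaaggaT
Of the 75-base windows of the transcripts, as long as the reads, 51.7% of those of Psme2 and 60.2% of those of Psme2b occur in a transcript of another gene. The authors counted uniquely aligned reads only, so the values of this pair rest on the remaining windows and are uncertain. Other members with a large share of such windows were Psmb5 (40.0%), Psma5 (39.8%) and Psmb3 (33.1%), in each case shared with another annotated gene, and 29 of the 47 members had none.

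Psmf1, which encodes the inhibitor PI31, was among the 5 highest members. It was at 7.28, 6.78, 7.29 and 6.99 log2 CPM in TRAP and at 6.33, 6.76, 6.27 and 6.64 in INPUT, with differences of 0.95, 0.03, 1.02 and 0.35. The mean of 0.59 passed with fraction alone (SE 0.16, adjusted p = 0.0139) and not with the pool as block (SE 0.23, adjusted p = 0.0637). Psme4, which encodes the activator PA200, differed by -0.03 ± 0.33. It was the 1 member whose difference was highest in VP2.2 (1.31, against -0.74 to -0.11 in the other pools). Psmc3ip, the name match that is no subunit, was at 2.22, 2.07, 2.67 and 1.30 log2 CPM in TRAP and at 3.63, 3.60, 3.23 and 3.24 in INPUT, a difference of -1.36 ± 0.34 (SE, adjusted p = 0.00749 with the pool as block) with no overlap. Its exons overlap those of Mlx on the opposite strand over 21.2% of their bases.

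Levels within the complex were compared per kilobase of transcript. In TRAP, the 14 constitutive core genes ran from 60.8 (Psmb4) to 651 (Psmb6) CPM per kilobase with a median of 362, and the 17 regulatory genes from 15.4 (Psmd3) to 504 (Psmc5) with a median of 148. In INPUT the medians of these groups were 295 and 108. Psmb6 (651 ± 101, SD, n = 4) and Psma7 (513 ± 64) led in TRAP, and their neighbours in this order, Psma7, Psmc5 (504 ± 72) and Psmb3 (474 ± 78), did not differ beyond their spread. The ATPases (median 273) stood above the non-ATPase subunits (median 113). The core chaperones (8.71 to 51.0) and the base chaperones (5.57 to 53.6) were lower than any constitutive core gene. Psmb9 was lowest of all members at 0.363 ± 0.248 CPM per kilobase in TRAP. SDs describe the spread of the deposited values over 4 libraries.

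The difference between fractions moved with gene length in these data. Across the 14249 genes, the Spearman correlation of the mean difference with exon length was 0.41, and by pool it was 0.32 in VP1.6, 0.57 in VP2.2, 0.22 in VP2.6 and 0.21 in VP2.11. Across the 47 members it was 0.39 for the mean. These are descriptions across genes, which share libraries and are not replicates. The members had a median exon length of 2800 bases, beside 4274 over all genes tested, and the pool with the highest correlation, VP2.2, was the one in which most members were lower in TRAP. When a smooth trend with exon length was taken out of each pool's differences, the members' median became 0.28, beside -0.02 over all genes, with 34 of 47 higher in TRAP. By pool the members' medians were then 0.40 in VP1.6, -0.05 in VP2.2, 0.59 in VP2.6 and 0.19 in VP2.11. With the pool as block, 11 of 47 members passed after this step, 9 higher and 2 lower in TRAP, where 32.4% of all genes passed (16% higher and 16.3% lower). Psmd6 (1.09 ± 0.21, SE, adjusted p = 0.00148) and Psma1 (0.81 ± 0.19, adjusted p = 0.00442) kept their call, and Psmb5 (0.94, adjusted p = 0.00343), Psmd4 (0.75, adjusted p = 0.0188), Psmd12 (0.74), Psma6 (0.73), Psma5 (0.65), Psmc6 (0.58) and Psmb10 (0.54, adjusted p = 0.0433) gained one. Psmg4 (-1.37) and Psmc3ip (-0.94) stayed lower, while Psme2 (-0.54, adjusted p = 0.0684) and Psme2b (-0.29, adjusted p = 0.506) did not pass. With a pool left out, 15 members passed after this step without VP2.2 (all higher), 11 without VP2.11 (9 higher), 5 without VP1.6 (4 higher) and 5 without VP2.6 (3 higher), where 1559 to 2122 of the 14249 genes were called higher. The part of exon length in the values as deposited was not tested.

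**Figure D4:**
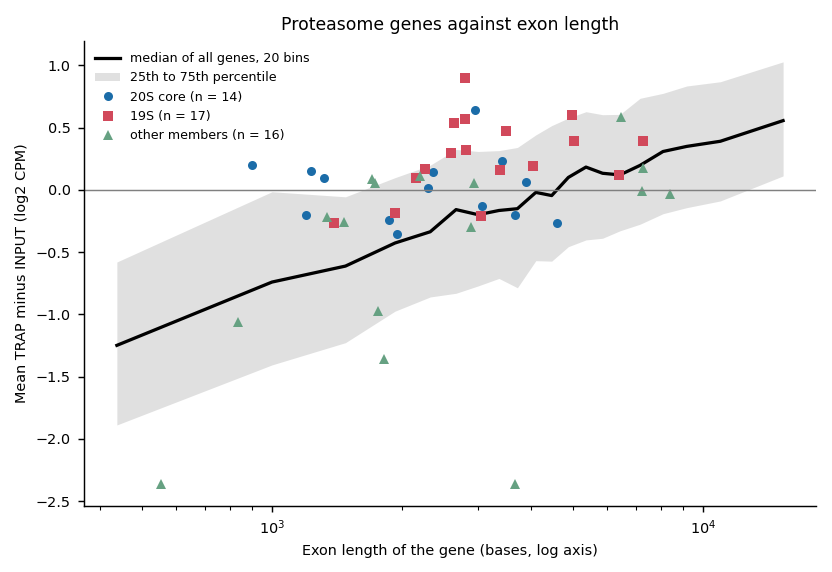
Mean TRAP minus INPUT in log2 CPM over the 4 pools (vertical axis) against exon length in bases (horizontal log axis), with the median of all 14249 genes in 20 bins of equal size as a line, their 25th to 75th percentile in grey, and the 47 members as points. The line rises with length, and most core and regulatory points lie on or above it, while Psmg4 at 555 bases and Psmb9 lie far below.

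Outside the named family, Vcp, Usp14 and Ubqln1, which work with the proteasome, were higher in TRAP, and Sem1 was lower. Of 43 other genes of the pathway with values, 27 passed with fraction alone (62.8%, 21 higher and 6 lower), where 47.9% of all genes did so (23.2% higher), and 17 with the pool as block (39.5%, 13 higher and 4 lower), where 32.2% did so (15.4% higher). Whether these shares differ from those of all genes was not tested. Among the 26 partners, regulators and shuttle factors, 9 passed with the pool as block, 7 higher and 2 lower. Vcp, the ATPase that pulls ubiquitinated proteins out of complexes, was higher in every pool, with differences from 1.41 to 1.67 and a mean of 1.57 ± 0.21 (SE, adjusted p = 0.00013 with the pool as block). Usp14, a deubiquitinase that sits on the 19S particle, was higher by 1.28 ± 0.21 (adjusted p = 0.00055), and the shuttle factor Ubqln1 by 0.92 ± 0.21 (adjusted p = 0.0045). Ddi2, the protease that activates Nfe2l1, was higher by 0.83 (adjusted p = 0.041), although VP2.11 had a difference of -0.23. Sem1, a small subunit of the 19S lid that does not carry the Psm name, was lower (log2 fold change -1.64 ± 0.26, adjusted p = 0.00045), with differences from -2.54 to -0.95.

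Of 10 genes for ubiquitin, its activating enzymes and its hydrolases, 5 passed with the pool as block, where 32.2% of all genes did so. The polyubiquitin gene Ubb was higher in TRAP (1.21 ± 0.41, SE, adjusted p = 0.035), as were the activating enzymes Uba6 (1.22, adjusted p = 0.0024) and Uba1 (1.07, adjusted p = 0.0028). In VP2.2 the difference of Ubb was -0.03, against 1.00 to 2.03 in the other pools. Rps27a, which encodes ubiquitin fused to a ribosomal protein, was lower (-0.87, adjusted p = 0.019). Of 7 genes of antigen processing, Erap1, the peptide trimming enzyme, was higher (1.99 ± 0.61, adjusted p = 0.021, from 0.08 to 3.74 by pool). Erap1 was low in INPUT, at 1.08, -0.90, 0.60 and 0.28 log2 CPM, and at 1.16, 2.27, 1.56 and 4.02 in TRAP. Its mean rested mainly on VP2.2 (3.17) and VP2.11 (3.74), and with the block and array weights Erap1 did not pass. B2m, the light chain of the class I complex, was lower (-1.21, adjusted p = 0.0073). After the trend with exon length was taken out, 16 of the 43 genes passed, 14 higher and 2 lower, where 32.4% of all genes did so (16% higher and 16.3% lower). Of the genes named here, B2m (-0.44, adjusted p = 0.176), Rps27a (-0.49, adjusted p = 0.085) and Ddi2 (0.47, adjusted p = 0.152) no longer passed.

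**Figure D5:**
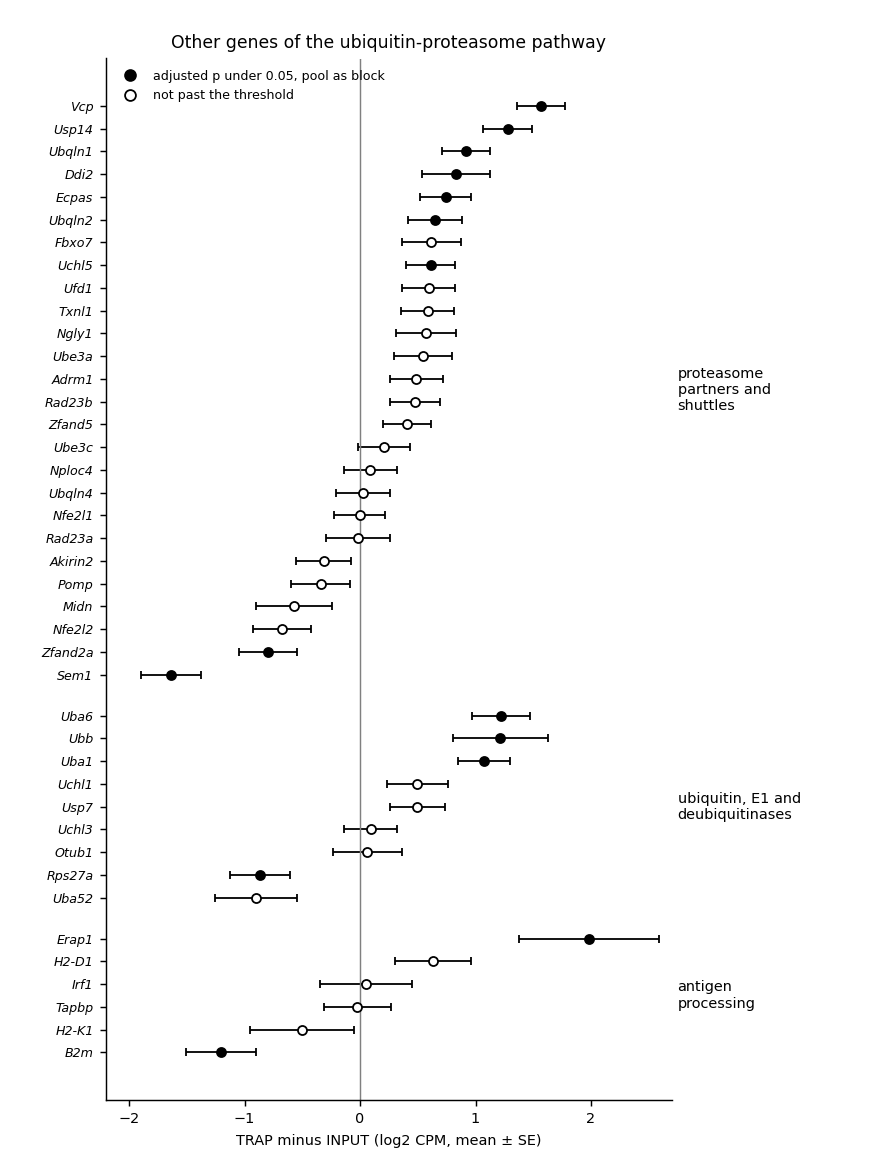
TRAP minus INPUT in log2 CPM (horizontal axis, mean of 4 pools with SE from the fit with the pool as block) for other genes of the ubiquitin-proteasome pathway in 3 lists. Filled points passed an adjusted p of 0.05 in that fit; Vcp, Usp14, Uba6 and Uba1 lie well to the right and Sem1 well to the left.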

How the data were processed

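RNA of 4 TRAP and 4 INPUT libraries, grouped by their titles and paired by pool (1 homogenate each), was sequenced. The authors aligned reads with STAR 2.5.1a to Ensembl's primary assembly (GRCm38), counted unique unambiguous reads with featureCounts, scaled them by TMM in edgeR and deposited log2 CPM. No read totals were given, so depth is unknown; 3 libraries are rounded to 3 digits. Columns of the authors' own comparison (fold changes, p-values) were not used. Of 14398 entries, 45 identical repeats were dropped. The 14249 genes above 1 CPM in 3 or more libraries were fitted with limma 3.58.1 (R 4.3.3; trend, Benjamini-Hochberg, threshold 0.05), by fraction alone and with the pool as block. The study's methods name voom with sample quality weights, which needs counts; these fits have no weights, and array weights were an alternative. Within pools, deviations of TRAP and INPUT from their fraction means correlated at -0.75 to -0.49 (other pairs 0.05 to 0.44), so the pairing is by pool and of opposite sign; no pool adjustment of the deposited values is stated in the sources used here. The exon length trend (union of GENCODE vM21 exons) was a loess fit of span 0.3. SEs of fold changes are limma's, which moderates the variance of each gene towards that of other genes, so they can differ from a gene's own spread over pools. Scripts were tested on simulated data. Members and lists were chosen with earlier results of these data known. Values in every library are given for the catalytic subunits, the highest and lowest member of each role group of 3 or more, and the 5 highest and 5 lowest members; of the other lists, genes called in both fits, at most 5 each; a few of these, though counted, are not reported here. Psmd1, Psmd12 and Psmd14, and the other members with values, were named by the rule that any member may be named. Other alternatives were filters, a pseudocount of 1, centring, a fold threshold and left-out libraries. Pools are separate groups of animals. Figures used matplotlib 3.10.9.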

Additional observations from a re-analysis of the deposited data

Results flagged for a closer look

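Of 94 sets of 4 libraries (47 members in each fraction), 3 held a library whose gap to the nearest of the others was beyond Dixon's 95% limit, where chance alone gives about 4.7. For Psma6, an alpha subunit of the core, the TRAP library of VP2.6 was at 8.84 log2 CPM (the others 8.62 to 8.64) and the INPUT library of the same pool was at 8.37 (the others 8.57 to 8.60), so the same pool was high in one fraction and low in the other. For Psmb9, the INPUT library of VP2.2 was at 3.01 log2 CPM (the others 0.11 to 0.43).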

How the results depend on the processing

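The count of members called depended on the setting: 11 with fraction alone, 6 with the pool as replicate block, 26 with array weights (20 higher and 6 lower; 60.7% of all genes called), 14 with both (42.2%), and 4 with a log2 fold change of at least 1. The replicate block ended the calls of Psmf1, Psmd12, Psmc6, Psmd1 and Psmb9 and changed no other member's call. The other pathway genes called numbered 27, 17 with the block, 10 with that fold threshold and 16 with the block and the exon length trend taken out, and the fold threshold left 3528 of 6830 calls over all genes. Leaving out libraries or pools, in the fits with and without the block, gave 4 to 19 members called, 11 to 27 other pathway genes and 3232 to 7167 calls over all genes. The members' median was then -0.04 to 0.18. With the exon length trend taken out it was 0.17 to 0.35 with a pool left out, beside 0.28 with all pools. Among the members given library by library, directions of those not called turned: with array weights Psmb6 0.079, Psma2 0.071 and Psmc5 0.022; with the block and weights Psmb6 0.0073 and Psma2 0.0040; with the length trend taken out Psmb6 0.16, Psmd9 -0.071, Psmd10 0.25, Psmb4 0.024 and Psmc5 0.26 (among the other members also Psmc1 0.20, Psmb2 0.39, Psma7 0.022, Psmg1 0.33 and Psmd11 -0.066); and with a pool or library left out Psmb3 (-0.21 to 0.23), Psmd8 (-0.46 to 0.051), Psmb10 (-0.10 to 0.24), Psme1 (-0.037 to 0.42), Psmd9 (-0.0030 to 0.48) and Psmg2 (-0.086 to 0.14). Calls were also gained: among the members given library by library, array weights with fraction alone called Psmb5, Psmb7, Psmb10, Psme1, Psmd9, Psmd3 and Psmd4 higher. Psmb4 was called lower there (-0.39). With the block and weights Psmd3 and Psmd4 kept such a call. The causes were not tested. Filters, the pseudocount, centring and a prior variance without trend left 10 to 12 members called. With 4 pools and unknown depth, differences near the errors given were not detectable.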
